A study of Danio rerio with 8 samples.

Results

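The long arm of zebrafish chromosome 4 was taken as the part of the chromosome from position 28000000 to its last listed cluster, in the danRer10 coordinates of the deposited clusters. It held 1183 transcription start regions of 42130 in all. The data are from cap analysis gene expression (CAGE), in which RNAs with a cap are caught and read from their first bases, so that each molecule can give 1 tag whatever its length. A start region is a set of overlapping tag clusters on one strand, merged over the 2 cluster lists that the authors deposited, after rows that a list repeated had been dropped. For comparison, chromosome 4 before that position held 982 regions, the other 24 chromosomes 39301 and unplaced scaffolds 664. The cut uses position only and no measured value.

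RNA came from whole zebrafish embryos taken 12 or 16 hours after fertilization (hpf), while the body axis is being segmented. The embryos were wild type (WT) or carried sa37, an allele of jam3b, which encodes a junctional adhesion molecule that sits at contacts between cells. Each of the 4 combinations of genotype and stage had 2 libraries. The libraries of replicate 1 share one cluster list and those of replicate 2 another, so the replicate number and the list cannot be told apart. Nothing in the labels says how many embryos went into a library, whether the mutants came from heterozygous parents, or that the 2 libraries of a group are separate clutches, so p-values measure the spread between these samples, which may be technical. In RNA from whole embryos, fewer cells of a type and less RNA per cell cannot be told apart.

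As background, the long arm of chromosome 4 is known as an unusual part of the zebrafish genome. It is late replicating and rich in heterochromatin, it has few protein-coding genes with counterparts in other vertebrates, and it is dense in repeats. Large families of near-identical genes lie there, among them zinc finger genes, genes of NLR proteins (intracellular immune receptors), small nuclear RNA genes and ribosomal RNA genes. In wild strains the end of this arm carries a sex-determining region. Tags from near-identical copies can be placed at more than one position, and how such tags were treated is not given in the sources used here. The deposited clusters carry no gene names and no annotation of the same build was at hand, so start regions are named by position, and neither their genes, the level of jam3b nor the cell type markers of the embryo were analysed here. Every level below is therefore a level at a listed position, whose source copy is uncertain.

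Start regions were sparser on the long arm than on most chromosomes. The arm spanned 48.6 Mb and had 24.3 regions per Mb, against 35.1 per Mb on chromosome 4 before the boundary and 31.1 over the other chromosomes, which ranged from 23.5 to 38.6. On the same strand, the median gap from one region to the next was 30221 bases on the long arm, 12295 before the boundary and 9072 on the other chromosomes. The 2 strands were used about equally, with 569 of the 1183 regions (48.1%) on the plus strand. Density along the arm was uneven. In successive bins of 7 Mb from the boundary it was 21.4, 18.3, 23.6, 22.0, 17.7 and 19.7 regions per Mb, and it reached 48.9 in the last bin, which ends at 76.6 Mb and is slightly shorter.

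Fewer of the long-arm regions were found by both lists. Of the 1183, 535 (45.2%) had clusters of both lists, 382 (32.3%) of list 1 alone and 266 (22.5%) of list 2 alone. List 1 alone supplied 13.3% of the regions before the boundary and from 12.1 to 19.4% of those on each of the other chromosomes, so the long arm lay above that range. The unplaced scaffolds, at 22.4%, lay above it too. Clusters of list 1 were also narrower on the long arm, with a median width of 25 bases against 59 before the boundary and 58 on the other chromosomes, whereas those of list 2 had medians of 16, 20 and 15 bases. On the scaffolds the medians were 42 bases in list 1 and 20 in list 2. Level and change were measured on regions of both lists with a mean of at least 1 RPM (tags per 1000000 tags) over the 8 libraries. On the long arm 400 regions passed, 135 regions of both lists did not, and the 382 and 266 of a single list entered no test. The 400 give 8.23 tested regions per Mb, below the 16.5 before the boundary and the 10.8 to 17.1 of the other chromosomes.

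At the boundary itself the listed regions were weak on both sides. The first 3 inside it began at 28190942, 28206112 and 28206185, all on the minus strand, belonged to list 2 alone and reached at most 1.41 RPM in any library. The last 3 outside it began at 27143318, 27907899 and 27909352. The first of these was listed at 0.55 RPM in a single library, and the other two ranged from 1.41 to 9.25 RPM and from 1.79 to 5.80 RPM. Moving the cut to 26000000 or 30000000 changed no call count of the long arm by more than 1.5 times.

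**Figure D1:**
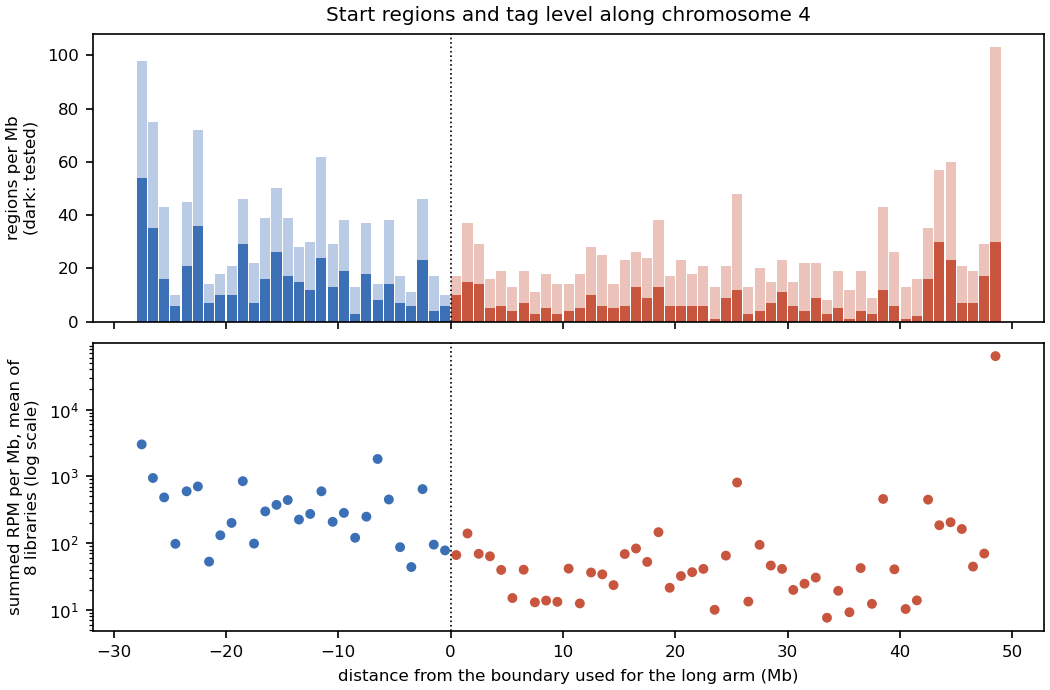
Start regions along chromosome 4 in 1 Mb bins, by distance from the boundary at 28 Mb (blue before it, red beyond it). The upper panel gives regions per Mb, with the tested regions dark, and the lower panel the summed RPM per Mb on a log scale, as the mean of 8 libraries. The last bin of the long arm stands above all others in summed RPM.

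Most tested long-arm regions were weak, and a few, mostly in one place, were very strong. The median level of the 400 was 3.77 RPM, with quartiles of 2.03 and 6.49. The median was 8.69 RPM for the 462 tested regions before the boundary and 8.41 RPM for the 17869 on the other chromosomes, where the median of a single chromosome lay between 6.57 and 9.66. Only 76 of the 400 (19.0%) reached 10 RPM, against 45.7% before the boundary and 45.5% on the other chromosomes. The tested regions on unplaced scaffolds lay between, with a median of 6.20 RPM and 34.6% at 10 RPM or more. At least 100 RPM was reached by 17 of 400 (4.25%), against 20 of 462 (4.33%) and 1123 of 17869 (6.28%). Of these 17, 12 lay in the single window described next, and outside it 5 of 381 (1.31%) reached that level. Within the arm the median was lowest in the bins from 35 to 42 Mb (2.04 RPM) and from 56 to 63 Mb (2.07 RPM), and highest in the last (5.28 RPM).

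The lower level held in every library. In replicate 1 the median of the 400 regions was 3.10 RPM in WT at 12 hpf, 2.32 in WT at 16 hpf, 3.08 in sa37 at 12 hpf and 2.40 in sa37 at 16 hpf. In replicate 2 it was 4.76, 3.91, 4.55 and 3.84 RPM in the same order. Both 16 hpf libraries lay below both 12 hpf libraries in each replicate. In the same libraries the medians before the boundary ran from 5.06 to 11.8 RPM and those of the other chromosomes from 5.64 to 11.3 RPM.

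Nearly all of the long arm's tags came from one stretch of 4626 bases near its end. The 10 kb window with the most RPM held 64 regions between 76320718 and 76325344, 51 of them on the plus strand. Their summed level averaged 62976 RPM over the 8 libraries, which was 93.8% of all the RPM listed on the long arm. In single libraries the window took 91.9 to 94.7% of the arm, and its plus strand at least 99.3% of the window. Of its 64 regions, 21 were found by both lists, 42 by list 1 alone and 1 by list 2 alone, and 19 were tested.

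Within the window the tags were spread over several broad merged regions rather than one. In those starting at 76322133, 76322809, 76321207 and 76324372, list 2 had 5, 6, 2 and 7 separate clusters. List 1 had 1, 1, 2 and 2. The strongest region, from 76322133 to 76322449 on the plus strand, is 316 bases wide and averaged 16827 RPM. Next came the plus-strand regions from 76322809 to 76323198 with 14612 RPM, from 76321207 to 76321458 with 12985 RPM and from 76324372 to 76324607 with 7103 RPM. Those starting at 76322462, 76325023 and 76322718 averaged 3869, 3640 and 1406 RPM, and those at 76321885 and 76321803 averaged 480 and 466 RPM. These 9 regions are 9 of the 10 strongest on the arm. The strongest region of the minus strand, from 76323004 to 76323284, averaged 145 RPM and overlaps plus-strand regions in position.

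The strongest regions outside that window also fell in short stretches. From 53794011 to 53799836, 30 regions, 29 of them on the minus strand, summed to 797 RPM. A single minus-strand start of 9 bases, from 70123231 to 70123240, held 368 RPM and was the tenth of the 10 strongest regions. The stretches from 66537661 to 66539807, from 66306431 to 66310172 and from 73504409 to 73508755 summed to 207, 146 and 102 RPM. In the stretch at 53794011, replicate 1 averaged 1163 RPM and replicate 2 430 RPM, a ratio of 2.70, so its level depended on the replicate and its list. The gap was uneven, with 2045 and 291 RPM in WT at 12 hpf and 956 and 816 RPM in sa37 at 12 hpf. The ratio was 3.08 at 66306431, 1.83 at 66537661, 1.14 at 70123231 and 0.413 at 73504409. The corresponding ratio for the strongest window was 1.28.

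The first comparison asked how start use on the arm changed from 12 to 16 hpf. The long arm's share of all listed RPM was lower at 16 hpf in both genotypes and both replicates. In WT it went from 11.2% to 5.86% in replicate 1 and from 7.84% to 5.51% in replicate 2. In sa37 it went from 9.73% to 6.12% in replicate 1 and from 6.74% to 4.38% in replicate 2. The lowest 12 hpf library (6.74%) lay above the highest 16 hpf library (6.12%), whereas the genotypes overlapped. The group means were 9.50% ± 2.35 (SD, n = 2) for WT and 8.24% ± 2.11 (SD, n = 2) for sa37 at 12 hpf, and 5.69% ± 0.245 (SD, n = 2) and 5.25% ± 1.24 (SD, n = 2) at 16 hpf. The share is a sum over the chosen regions and was described without a test.

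Summed over the arm, the share was lower at 16 hpf both in its strongest window and outside it. The window alone took 10.6, 5.49, 9.21 and 5.73% of the listed RPM in replicate 1, for WT at 12 and 16 hpf and sa37 at 12 and 16 hpf, and 7.41, 5.16, 6.23 and 4.02% in replicate 2. The 16 hpf level of the window was 0.513 and 0.695 times the 12 hpf level in WT and 0.624 and 0.644 times in sa37. Outside the window the share was 0.610, 0.374, 0.519 and 0.397% in replicate 1 and 0.433, 0.348, 0.515 and 0.356% in replicate 2, so that here too no 16 hpf library reached a 12 hpf library. The ratios of the RPM outside the window were 0.604 and 0.802 in WT and 0.768 and 0.689 in sa37. Not every stretch followed that sum. The stretch at 66306431 was higher at 16 hpf in all 4 pairs, with ratios of 1.47 and 1.13 in WT and 1.78 and 2.20 in sa37, and its main region had a stage difference of 0.57 (block adjusted p 0.0239). The stretch at 53794011 had ratios of 0.6004 and 1.54 in WT and 0.443 and 0.202 in sa37, so that WT replicate 2 went the other way. On chromosome 4 before the boundary the same ratios ran the other way, from 1.06 to 1.19. The share of the unplaced scaffolds, however, was also lower at 16 hpf in all 4 pairs. It went from 0.544 to 0.542% and from 0.861 to 0.733% in WT, in replicates 1 and 2. In sa37 it went from 0.534 to 0.486% and from 0.930 to 0.777%.

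**Figure D2:**
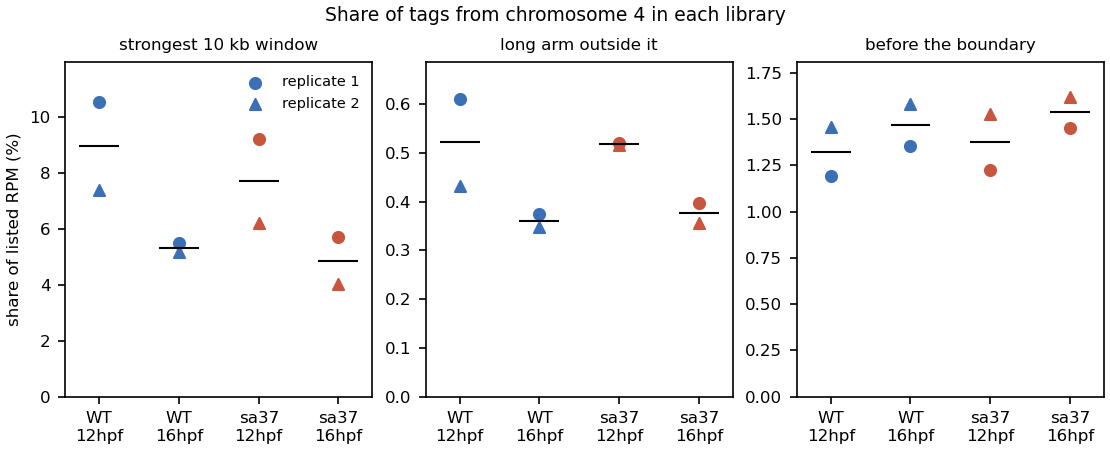
Share of all listed RPM, in percent, that came from the strongest 10 kb window of the long arm, from the rest of the arm and from chromosome 4 before the boundary, in each of the 8 libraries (circles replicate 1, triangles replicate 2; lines, means of 2). In the first 2 panels all 16 hpf libraries lie below all 12 hpf libraries, and in the third the 16 hpf library lies above the 12 hpf library of its replicate and genotype.

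Region by region, most of the arm was lower at 16 hpf. Of the 400 tested regions, 323 (80.8%) had a difference below 0 between 16 and 12 hpf, averaged over genotypes, against 40.9% of all 19000 tested regions. The median difference of the 400 was -0.28 on the log2(RPM + 1) scale, with quartiles of -0.47 and -0.05. It was 0.17 before the boundary, 0.09 on the other chromosomes, 0.03 on unplaced scaffolds and 0.08 over all tested regions. The arm's median thus lay 0.36 below that of all regions. In 145 regions (36.2%) all 4 pairs of libraries were lower at 16 hpf and in 20 (5.0%) all 4 were higher, against 16.3% and 33.3% of all tested regions. A difference of at least 1 log2 unit was found in 5.25% of the 400, 3 higher and 18 lower, against 8.45% of all tested regions. The medians of single pairs were -0.29 and -0.25 in WT and -0.17 and -0.28 in sa37 for replicates 1 and 2. The lower median was present along the whole arm, between -0.30 and -0.36 in the 6 bins from 28 to 70 Mb and -0.14 in the last bin, while the 4 bins before the boundary ranged from 0.08 to 0.20.

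Few of these differences passed the test without a term for the replicate. In limma on log2(RPM + 1), with p-values adjusted by Benjamini-Hochberg over all 19000 regions, 2 of the 400 were called between stages, both higher at 16 hpf, where 1.88% of all tested regions were called. After quantile normalization without the block there were 9, of which 2 were higher and 7 lower, while the whole table had 773 higher and 353 lower. Without the block on the authors' RPM, leaving out any 1 of the 8 libraries left 1 call. With the replicate number as a block, 73 (18.2%) were called, against 27.9% of all tested regions. Of the 73, 12 (16.4%) were higher at 16 hpf, against 72.3% of the calls in the whole table, and 61 were lower. The 61 are 15.2% of the 400. Of all tested regions, 20.2% were called higher and 7.73% lower. Before the boundary 114 of 462 were called higher and 34 lower, and on the other chromosomes 3669 of 17869 were called higher and 1345 lower. On unplaced scaffolds 35 of 269 were called higher and 29 lower. Leaving out 1 library at a time, the block count ran from 32 to 70, the highest without WT 12 hpf replicate 2. The lowest were 38 without WT 12 hpf replicate 1, 35 without WT 16 hpf replicate 1, 32 without sa37 16 hpf replicate 1 and 34 without sa37 16 hpf replicate 2. No share over all tested regions is given for fits with a library left out. Their counts show only how the arm's number moved. Lower calls came from the whole arm, 21 of the 61 from the last bin and 3 to 11 from each of the others.

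The regions of the strongest window were lower at 16 hpf together. Of its 19 tested regions all 19 had a difference below 0, with a median of -0.70, and 13 were called lower with the block. The strongest, at 76322133, measured 24737, 16329, 27009 and 16534 RPM in replicate 1 for WT at 12 and 16 hpf and sa37 at 12 and 16 hpf, and 16913, 11720, 12350 and 9027 RPM in replicate 2. Each 16 hpf library was below the 12 hpf library of the same genotype and replicate, but the stages overlapped across replicates. Its difference was -0.57 (SE 0.37, adjusted p 0.745 in limma and 0.0261 in the block fit). At 76325023 the levels were 7177, 2763, 4748 and 2902 RPM in replicate 1 and 4000, 2328, 3288 and 1910 RPM in replicate 2. Here every 12 hpf library lay above every 16 hpf library, with a difference of -0.91 (SE 0.31, adjusted p 0.288 in limma and 0.00341 in the block fit). This region was named for its level and also for its small block p-value, so its separation adds no support. The other 7 strong regions of the window had differences between -0.62 and -0.84 and block adjusted p-values between 0.00604 and 0.0174.

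Outside the window 60 of 381 tested regions were called between stages with the block, 12 higher and 48 lower, and the median difference of the 381 was -0.26. The single strong start at 70123231 measured 430, 145, 676 and 314 RPM in replicate 1, in the same order of groups, and 305, 131, 609 and 333 RPM in replicate 2. It was lower at 16 hpf within each genotype and lay higher in sa37 than in WT at each stage. Its stage difference was -1.19 (SE 0.23, adjusted p 0.0632 in limma and 0.00127 in the block fit) and its genotype difference 1.02 (SE 0.23, adjusted p 0.200 in limma and 0.00675 in the block fit).

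Weaker regions that fell with the block included that from 40616916 to 40616975 on the plus strand, with 5.88, 4.04, 4.36 and 1.39 RPM in replicate 1 and 6.04, 3.20, 4.12 and 0.706 in replicate 2. Its 12 and 16 hpf libraries did not overlap, and its difference was -0.99 (SE 0.23, adjusted p 0.11 in limma and 0.00233 in the block fit). It was named for its small block p-value, so this separation adds no support. The regions at 34642594, 71426837 and 47444089 were listed at 0 in both 16 hpf libraries of replicate 1. Their 12 hpf levels in that replicate ran only from 0.6 to 1.79 RPM. List 1 holds no value between 0 and 0.5 RPM, so the size of this fall cannot be told. In replicate 2 these regions went from 5.70 to 1.47, from 5.18 to 1.26 and from 3.13 to 0.673 RPM in WT. Their adjusted p-values were 0.672, 0.693 and 0.543 in limma and 0.00189, 0.00289 and 0.00334 in the block fit. Those at 71426837 and 47444089 reached the mean of 1 RPM only through the 12 hpf libraries. The lowest called difference, -2.56, belonged to the plus-strand region from 55829505 to 55829512, named here after its values were seen. It measured 189, 20.4, 110 and 17.3 RPM in replicate 1 and 208, 4.54, 6.24 and 11.003 RPM in replicate 2, so that the sa37 pair of replicate 2 went the other way (adjusted p 0.305 in limma and 0.0244 in the block fit).

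Against this direction, 12 long-arm starts passed the block fit as higher at 16 hpf. The clearest was a minus-strand start of 3 bases from 43029118 to 43029121. It was listed at 0 in both 12 hpf libraries of replicate 1 and at 0.043 and 0.286 RPM in WT and sa37 in replicate 2. At 16 hpf it measured 34.4 and 41.8 RPM in replicate 1 and 46.0 and 27.5 RPM in replicate 2, for WT and sa37. The stages did not overlap and the genotypes did, and the difference was 5.13 (SE 0.25, adjusted p 0.00159 in limma and 7.67e-05 in the block fit). The other call without the block, from 56092417 to 56092433 on the minus strand, reached 4.51 and 7.27 RPM in sa37 at 16 hpf and at most 0.126 RPM in the other 6 libraries. Its stage difference was 1.38 (SE 0.24, adjusted p 0.0425 in limma and 0.000795 in the block fit), and its genotype by stage interaction of 2.59 did not pass (block adjusted p 0.209). Both of these starts reached the mean of 1 RPM only through the libraries in which they were high. They were also named for their small block p-values, so their separation adds no support.

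The other regions named for a rise with the block differed by less than 1 log2 unit. The plus-strand region from 52697022 to 52697122 measured 4.63, 15.4, 19.0 and 25.7 RPM in replicate 1 and 4.59, 14.5, 26.5 and 36.0 in replicate 2, and so rose with stage (0.97, block adjusted p 0.00381) and was higher in sa37 (1.52, block adjusted p 0.00246). The regions at 76548337, 73485048 and 28374961 had stage differences of 0.68, 0.66 and 0.56, with block adjusted p-values of 0.00658, 0.0126 and 0.0155 and genotype differences of 0.06, 0.25 and 0.07. At 73485048 the 12 hpf libraries ran from 8.46 to 11.1 RPM and the 16 hpf libraries from 13.0 to 19.8. That region too was named for its small block p-value, so its separation adds no support.

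**Figure D3:**
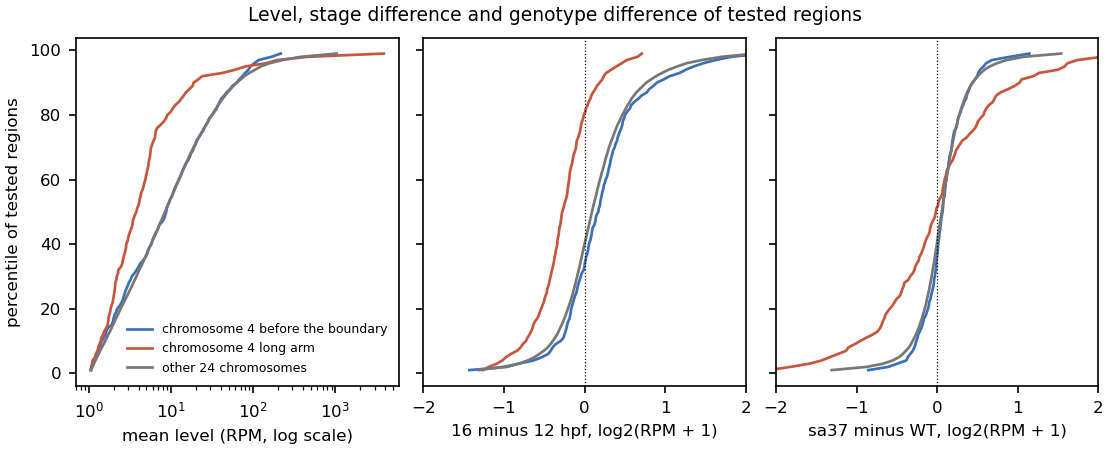
Percentiles of the mean level (RPM, log axis), of the difference between 16 and 12 hpf and of the difference between sa37 and WT, both on the log2(RPM + 1) scale, for the tested regions of the long arm (red, 400), of chromosome 4 before the boundary (blue, 462) and of the other 24 chromosomes (grey, 17869). Over most of its range the long arm's curve lies at lower levels, but above both others at the 98th and 99th percentiles, and at lower stage differences, with a median of -0.28, though not at the 1st percentile, while its genotype differences are spread more widely around a median of -0.02.

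The second comparison asked how start use on the arm differed between jam3b-sa37 and WT embryos. The arm's median genotype difference was close to 0. The median difference of the 400 regions was -0.02 against 0.06 over all tested regions, and its 4 single pairs lay between -0.04 and 0.05. The spread was wider: the quartiles were -0.45 and 0.44 on the long arm and -0.11 and 0.22 over all regions. Of the 400, 79 (19.8%) differed by at least 1 log2 unit, 42 higher and 37 lower in sa37, against 4.35% of all tested regions.

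In limma without the block, 12 long-arm regions were called between genotypes, 9 higher and 3 lower in sa37, against 0.632% of the whole table (0.384% higher and 0.247% lower). With the block 61 (15.2%) were called, against 7.36%. Of these 42 (68.9%) were higher in sa37 and 19 lower, where 64.3% of the calls in the whole table were higher. Of all tested regions, 4.74% were called higher and 2.63% lower. Quantile normalization with the block moved this balance to 38 higher and 29 lower on the arm (56.7% higher), and that of the whole table from 64.3% to 53.6% higher. Before the boundary 24 of 462 (5.19%) were called with the block, on the other chromosomes 1277 of 17869 (7.15%) and on unplaced scaffolds 37 of 269 (13.8%). These shares were not matched for level. From 1 to 5 RPM, 47 of 246 long-arm regions were called with the block (19.1%, against 9.01% on the other chromosomes). From 5 to 20 RPM it was 10 of 116 (8.62% against 6.93%), and above that 4 of 38 (10.5% against 5.01%). Of the 12 calls without the block, 11 lay between 1 and 5 RPM. Without the block, leaving out any 1 of the 8 libraries left 0 to 2 calls on the arm. With the block it left 37 to 56, and the 37 came without sa37 16 hpf replicate 2. For these fits too, no share over all tested regions is given. All 12 calls made without the block were among the 61, and 14 of the 61 (23.0%) were also among the 73 called between stages (19.2% of these).

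The wider genotype spread was found at each level. Among regions of 1 to 5 RPM, 24.8% on the long arm differed by at least 1 log2 unit, against 4.14% before the boundary and 5.67% on the other chromosomes. The shares were 8.62, 2.52 and 3.64% from 5 to 20 RPM. Above 20 RPM, where the long arm had 38 regions, they were 21.1, 0 and 2.11%. Over all levels, 11.5% of the 269 tested regions on unplaced scaffolds differed by that much. By correlation and SD, replicates of a group also differed more on the long arm than on placed chromosomes. The median size of the replicate difference was 0.687 log2 units on the long arm, 0.644 before the boundary and 0.678 on the other chromosomes. That median mixes scatter with a shift common to many regions. In WT at 12 hpf the mean log2 level went from 2.47 in replicate 1 to 2.76 in replicate 2 on the arm. On the other chromosomes it went from 3.04 to 3.59, and this shift was the larger one in each group. Across regions, Pearson's r between the log2 levels of a group's 2 libraries was 0.81 to 0.87 on the long arm and 0.92 to 0.93 before the boundary and on the other chromosomes, and the SD of the replicate difference was 1.19, 0.71 and 0.79 log2 units. On the scaffolds r was 0.76 to 0.87 and the SD 1.02. These correlations are over regions that share their libraries, and the part of this spread in the genotype differences was not tested.

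**Figure D4:**
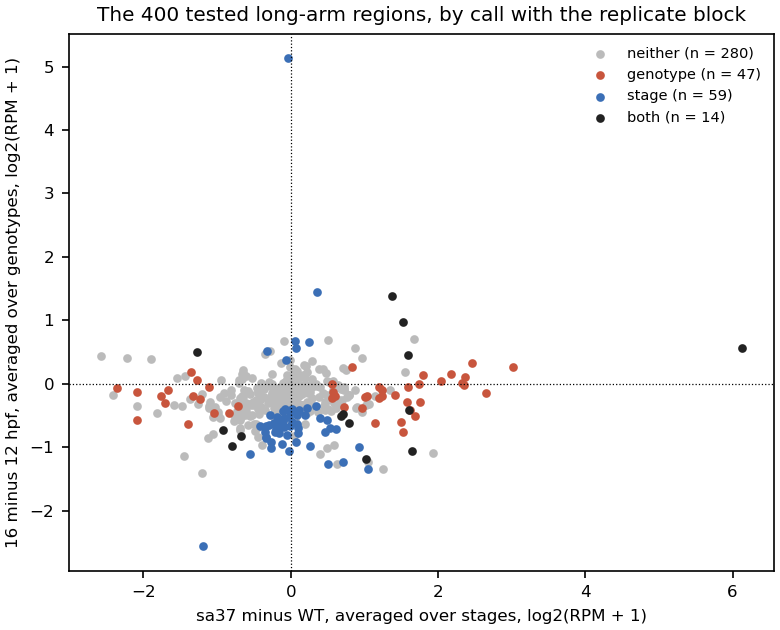
The 400 tested long-arm regions by their difference between sa37 and WT (x axis, averaged over stages) and between 16 and 12 hpf (y axis, averaged over genotypes), both on the log2(RPM + 1) scale, coloured by the calls in limma with the replicate block. Stage calls lie mostly below the horizontal line and genotype calls to both sides of the vertical line, and 14 regions have both.

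The largest genotype difference was at the plus-strand region from 66306431 to 66306609. In WT it measured 3.69 RPM at 12 hpf and 4.34 at 16 hpf in replicate 1 and 1.11 and 1.26 in replicate 2. In sa37 it measured 301 and 547 RPM in replicate 1 and 87.4 and 192 in replicate 2. All 4 sa37 libraries lay far above all 4 WT libraries, the ratio of the means was 108, and the difference was 6.12 (SE 0.59, adjusted p 0.0118 in limma and 9.06e-06 in the block fit). It supplied 97.5% of the 146 RPM of its stretch. Upstream of it, the plus-strand region from 66232753 to 66232787 was listed at 0.63, 0.61, 0 and 0 RPM in WT and at 9.23, 10.9, 6.18 and 12.1 RPM in sa37, each in the order of 12 and 16 hpf in replicate 1 and then in replicate 2. Its groups did not overlap, with a difference of 3.02 (SE 0.30, adjusted p 0.0119 in limma and 0.000378 in the block fit). This second region reached the mean of 1 RPM only through sa37. Both regions were named for their small block p-values, so their separation adds no support.

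Several weak starts were listed in one genotype and not in the other. They passed the filter on mean level only through the genotype that listed them, and were named for their small block p-values. The minus-strand region from 71346090 to 71346127 was at 0 in all 4 WT libraries and at 4.19, 4.39, 3.44 and 4.69 RPM in sa37. Taken against a floor for each WT library (0.5 RPM in replicate 1, below which list 1 holds no value, and 3 tags in replicate 2), it was at least 13.3-fold higher in sa37, with a difference of 2.37 (SE 0.21, adjusted p 0.0104 in limma and 0.000232 in the block fit). The minus-strand region from 72579096 to 72579164, at 0 in WT and at 3.93, 3.53, 4.01 and 4.65 RPM in sa37, was at least 12.8-fold higher (difference 2.33, SE 0.21, limma adjusted p 0.0111). In the other direction, the plus-strand region from 52545101 to 52545172 measured 4.94, 3.49, 3.90 and 4.33 RPM in WT and 0 in all 4 sa37 libraries. It was at least 12.9-fold lower in sa37, with a difference of -2.36 (SE 0.21, adjusted p 0.0111 in limma and 0.000352 in the block fit).

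Others had the same pattern at lower levels or with a few tags in the lower genotype. The plus-strand region at 73547144 ran from 0 to 0.589 RPM in WT and from 4.27 to 6.85 in sa37, and the minus-strand region at 58956087 from 0 to 0.042 RPM in WT and from 1.91 to 2.92 in sa37 (differences 2.46 and 1.74, limma adjusted p 0.0134 and 0.0345). The regions at 43907852 and 72087238 ran from 2.65 to 4.39 and from 1.77 to 3.13 RPM in WT and reached at most 0.125 and 0 RPM in sa37 (differences -2.08 and -1.66, limma adjusted p 0.0149 and 0.0403). Lower in sa37 with the block alone were those at 74768316, 31334745 and 59770746. They had differences of -1.76, -1.27 and -1.36, block adjusted p-values of 0.00277, 0.00513 and 0.0071 and limma adjusted p-values of 0.151, 0.363 and 0.355. None of the 3 overlapped between genotypes, but they were named for small block p-values, so this adds no support. Those at 74768316 and 31334745 reached the mean of 1 RPM only through WT.

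Regions present in one genotype and absent from the other were counted over the arm as those with at least 1 RPM in all 4 libraries of one genotype and under 0.5 RPM in all 4 of the other. There were 13 among the 400 tested (3.25%), 10 present in sa37 and 3 in WT, against 0.542% of all tested regions, which divides into 0.347% present in sa37 and 0.195% in WT. Chromosome 4 before the boundary had 1 of 462 (0.216%), the other chromosomes 80 of 17869 (0.448%) and the unplaced scaffolds 9 of 269 (3.35%). The 13 lay between 39280729 and 75346000, on both strands, and had means from 1.04 to 2.82 RPM over the 8 libraries. With the other genotype under 0.5 RPM, each reached the mean of 1 RPM only through the genotype in which it was present. These shares were not matched for level. Of the tested regions, 61.5% lay between 1 and 5 RPM on the long arm and 36.8% on the other chromosomes. The strongest, from 39280729 to 39280795 on the plus strand, was at 0 in WT and at 4.27, 2.89, 8.13 and 7.31 RPM in sa37. Along the arm the share of tested regions called between genotypes with the block ran from 3.45% in the bin from 42 to 49 Mb to 26.7% in that from 56 to 63 Mb, with no call count above 16 in a bin.

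**Figure D5:**
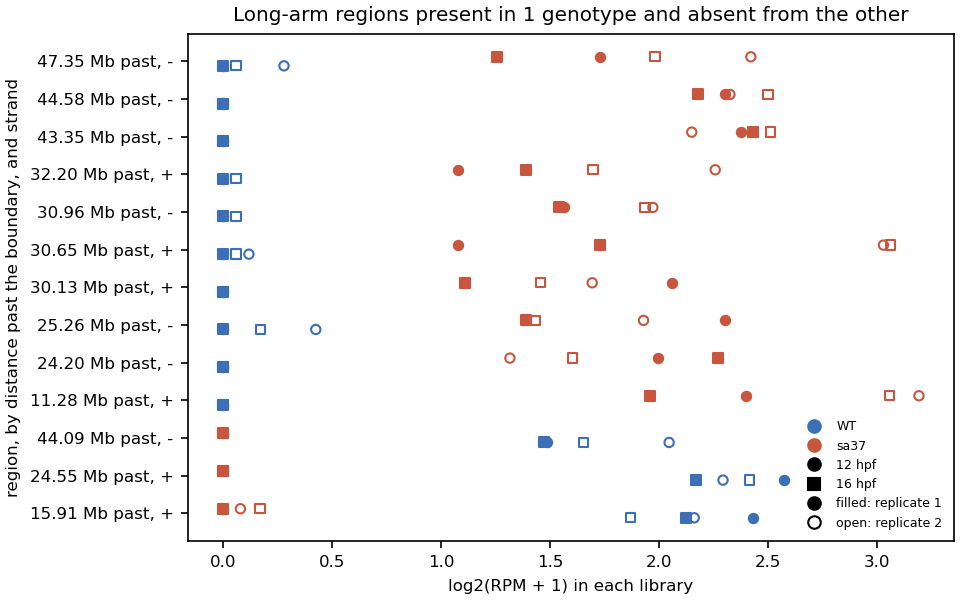
The 13 tested long-arm regions with at least 1 RPM in all 4 libraries of one genotype and under 0.5 RPM in all 4 of the other, by distance past the boundary at 28 Mb; the x axis is log2(RPM + 1) in each library (blue WT, red sa37; circles 12 hpf, squares 16 hpf; filled replicate 1, open replicate 2). The upper 10 are present in sa37 and the lower 3 in WT. The genotypes overlap in none of the 13, which the rule of selection fixes in advance.

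In the strongest window the genotypes overlapped in 18 of the 19 tested regions, and on the rest of the arm in 322 of 381. This overlap was not counted over all tested regions, so neither count can be read as unusual. The exception in the window, from 76321176 to 76321183 on the plus strand, ran from 4.22 to 8.40 RPM in WT and from 9.09 to 13.5 in sa37. It did not pass (difference 0.76, block adjusted p 0.0859). Of the 19, 17 (89.5%) had a genotype difference below 0, against 40.9% of all tested regions. Of these 19 regions 1 was called between genotypes with the block, as lower in sa37, and the median difference was -0.20. The window's 9 strongest regions had genotype differences from -0.09 to -0.34 and block adjusted p-values from 0.226 to 0.729.

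The last comparison was of the genotype difference at one stage with that at the other. This interaction was called in 0 of the 400 regions in limma without the block, where 3 had an unadjusted p under 0.05, and in 0 with the block, where 18 did, and 0% of all 19000 regions were called in either fit. On recovered tags edgeR called 0, with 5 at an unadjusted p under 0.05 without the block and 12 with it, and DESeq2 called 0, with 6. With 2 libraries in a group, an interaction of moderate size may not be detectable.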

How the data were processed

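CAGE libraries of 8 samples, 2 in each of 4 groups by the labels, were deposited by the authors as RPM per tag cluster. The build is danRer10, and BWA and HISAT2 are listed without a role, per the submitters' processing notes. The clustering method and the treatment of tags with several matches are not given in the sources used here.

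Repeated rows (412 in list 1, 796 in list 2) were dropped, and clusters sharing at least 1 base on a strand were merged, with the end read as exclusive. All values examined (100%, within 0.006 RPM in list 1 and 0.0006 in list 2) were whole multiples of a step per library. They numbered 22367 to 23876 in a library of replicate 1 and 37964 to 38653 in replicate 2. Values of 0 and the strongest values were not examined. By chance 14.0 to 20.8% would pass in list 1 and 2.10 to 2.89% in list 2. The steps gave 10662458 to 15830713 tags in replicate 1 and 16938015 to 23300915 in the other. For replicate 2, 3 tags taken as the floor equal 0.125 to 0.172 RPM, which covers counting error only. List 1 holds no value between 0 and 0.5 RPM.

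The test was limma 3.58.1 in R 4.3.3 on log2(RPM + 1), which understates the change of low regions, with 4 group means over all 8 libraries, two-sided p-values adjusted by Benjamini-Hochberg over 19000 regions (both lists, mean of at least 1 RPM) and a threshold of 0.05. The design had named edgeR for counts, and the unit called for limma. EdgeR 4.0.16 and DESeq2 1.42.0 on recovered tags, the replicate block and other settings were alternatives. The script was tested on simulated data. Libraries with the same number deviated together from their group means, with r of 0.68 to 0.83 over all tested regions and 0.29 to 0.79 on the long arm, where the pairing comes from the titles. Named regions were the 10 strongest of the arm, up to 6 with the smallest block p in each direction of the genotype and stage comparisons, and 3 on either side of the boundary. The members, lists and rules were chosen with earlier results of these data known.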

Additional observations from a re-analysis of the deposited data

Results flagged for a closer look

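Signal also appeared in long-arm regions that only one cluster list holds and that entered no comparison. Of the 382 regions of list 1 alone, 9 had at least 1 RPM in both sa37 libraries of replicate 1 and under 0.5 RPM in both WT libraries, and 20 had the opposite pattern, together 7.59%, against 2.79% of such regions on the other chromosomes and 5.37% on unplaced scaffolds. Of the 266 regions of list 2 alone, 6 were present in sa37 and absent from WT in replicate 2 and 9 the other way, together 5.64%, against 0.860% and 3.91%. The strongest were listed in WT. The plus-strand region from 55668819 to 55668850 was at 8.78 and 12.2 RPM in WT and at 0 in sa37 in list 1, and the minus-strand region from 62895708 to 62895741 at 11.4 and 7.78 RPM in WT and at 0.057 and 0.042 in sa37 in list 2. Each count rests on 1 replicate, and no difference was tested.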

How the results depend on the processing

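The counts of called regions depended on the fit. The 12 genotype calls became 61 with the replicate block, 21 with quantile normalization and 67 with both, 1 at a mean of at least 5 RPM, 1 in edgeR, 40 in edgeR with the block and 40 in DESeq2. The 2 stage calls became 73 with the block, 9 with quantile normalization and 102 with both, 1 at 5 RPM, 1 in edgeR, 66 in edgeR with the block and 17 in DESeq2. Quantile normalization called 1.26% of all tested regions between genotypes and 5.93% between stages (5.25% and 2.25% on the arm). With the block as well it called 6.85% and 27.1% (16.75% and 25.5% on the arm). No share over all tested regions is given for the other alternatives in this paragraph, whose counts show only how the arm's number moved. Leaving out each library in turn gave 0 to 2 genotype calls (57 to 79 regions at an unadjusted p under 0.05 where the count was 0) and 1 stage call each time, and with the block 37 to 56 and 32 to 70 (for stage 38 and 35 without WT replicate 1 at 12 and 16 hpf, and 32 and 34 without sa37 16 hpf replicates 1 and 2). With the block and a pseudocount of 0.1 there were 32 genotype and 42 stage calls. The interaction had 0 calls under each alternative. Without the strongest window, the arm's mean share of 7.17% became 0.444%. Leaving out that window, and the pseudocount and left-out libraries with the block, were chosen after seeing the data.

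Quantile normalization moved the median stage difference of all tested regions by -0.14, edgeR with the block by -0.12 and DESeq2 by -0.12, and the long arm's median then lay 0.39, 0.48 and 0.48 below that of all regions. None of the 38 named differences reversed under any alternative in which it was checked. Of them 11 passed the threshold without the block, 38 with it, 32 in edgeR and 32 after quantile normalization with the block, 18 in DESeq2, 16 after quantile normalization, 9 with a pseudocount of 0.1, 1 in edgeR without the block and 1 to 3 when any 1 library was left out, and 2 of 18 passed at a mean of at least 5 RPM. The 38 were chosen by the block fit or by level. They were not checked in further block fits, such as those with a pseudocount of 0.1 or with a library left out. Except where values are given here, the causes of these changes were not tested. Without the filter on level, the 535 regions of both lists gave 13 genotype and 3 stage calls, 1 more of each than with it. For that setting too, no share over all regions is given.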
